A study of Mus musculus with 16 samples.

Results

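The 10 genes described here encode the T cell antigen receptor complex and the first proteins it signals through. They are the CD3 chains Cd3d, Cd3e, Cd3g and Cd247, the receptor constant regions Trac, Trbc1 and Trbc2, the coreceptor Cd4 and the kinases Lck and Zap70. They were picked by name, and each matched 1 of the 56748 genes in the count and TPM tables. RNA-Seq was performed on CD4+ memory T cells sorted from mouse spleen as CD44high and CD62L- with low or no CD25, in 16 libraries that fall into 4 groups of 4. HP1α and HP1γ, encoded by Cbx5 and Cbx3, are heterochromatin proteins that bind methylated histone H3, and the study asked what their loss does in CD4+ T cells.

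HP1α KO mice were Hp1a-/- in all tissues, because the floxed allele had been excised with CMV-cre before heterozygotes were intercrossed, and their WT littermates were Hp1a+/+. HP1γ KO mice were homozygous for the floxed Hp1g allele and carried the Cd4-cre transgene, and their WT littermates carried the same 2 floxed alleles without Cre. All mice were 6 to 12 weeks old, sex-matched between groups and of mixed 129/Sv x C57BL/6 background. The study states that males were used, with its sequencing analyses in mind. In the HP1γ line the transgene and the deletion cannot be told apart, since none of the 4 groups carries Cd4-cre with Hp1g intact. The 2 WT groups differ in line and in the floxed Hp1g alleles, which only the HP1γ WT carried, and these cannot be told apart either. The cells were sorted on surface CD4, CD44, CD62L and CD25, so Cd4 belongs to the sort. A replicate is a library that the labels number separately, and p-values measure the spread between these libraries.

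As background, the αβ receptor binds peptide and MHC but has no signalling tail of its own. It travels to the membrane only with the CD3γε, CD3δε and CD3ζζ dimers, whose tyrosine motifs are phosphorylated by LCK, brought in by CD4. The kinase ZAP-70 then docks on those motifs and passes the signal to the adaptors LAT and SLP-76.

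The 2 β-chain constant regions are near-copies, which bears on how reads were divided between them. Trbc1 (ENSMUSG00000076490, GRCm39 chromosome 6, positions 41515152 to 41516815, plus strand) and Trbc2 (ENSMUSG00000076498, positions 41523664 to 41525286) lie 6848 bp apart, and either can be joined to the same variable segments. Their first coding exons, of 375 nt, differ at 1 base. The stretch of 60 bases around it, which is bases 230 to 289 of the exon in each gene, is shown with that base in capitals.
Trbc1, chr6:41515381-41515440: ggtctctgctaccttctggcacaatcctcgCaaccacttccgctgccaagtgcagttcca
Trbc2, chr6:41523893-41523952: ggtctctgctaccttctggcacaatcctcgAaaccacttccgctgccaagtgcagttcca
A read inside the other bases of exon 1 fits both genes. The remaining coding sequence, 143 nt joined from exons 2 to 4, holds 22 further differences, shown in capitals.
Trbc1, exons 2 to 4: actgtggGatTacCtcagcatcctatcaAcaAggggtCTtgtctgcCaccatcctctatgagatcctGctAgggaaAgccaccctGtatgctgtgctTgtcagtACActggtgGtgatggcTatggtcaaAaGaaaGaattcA
Trbc2, exons 2 to 4: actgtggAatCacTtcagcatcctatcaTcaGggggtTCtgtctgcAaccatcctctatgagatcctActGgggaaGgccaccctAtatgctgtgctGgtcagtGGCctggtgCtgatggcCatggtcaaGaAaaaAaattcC
Over the 518 coding bases the 2 genes were 95.6% identical, and the split of reads between them is therefore an estimate. The sum of their estimated counts does not depend on it. A sum of their TPM does where the lengths used for the 2 genes differ.

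The other genes lie apart from these. Cd3g (chromosome 9, 44880870 to 44891735, minus strand) and Cd3d (44893083 to 44899173, plus strand) stand head to head 1347 bp apart, with Cd3e (44910037 to 44920925, minus strand) 10863 bp further on. Cd247 is at chromosome 1, 165616250 to 165704846, Zap70 at chromosome 1, 36800837 to 36821905, Lck at chromosome 4, 129442137 to 129467434, and Trac at chromosome 14, 54457978 to 54461663. Cd4 (chromosome 6, 124841655 to 124874758, minus strand) shares its chromosome with Cbx3 and lies 73.4 Mb from it. Trbc1 and Trbc2 lie 9.93 and 9.92 Mb from Cbx3.

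The estimated counts of a library summed to between about 26694000 and 40199600, of which the 10 genes took 0.504% to 0.634%. The smallest count of any of them in any library was 5293. The labels were checked on the deleted genes. Cbx3 was at 47.5 ± 1.97 CPM in HP1γ KO and 84.5 ± 8.66 CPM in HP1γ WT (mean ± SD, n = 4; adjusted p = 0.00150 by edgeR). Cbx5 was at 27.1 ± 2.77 CPM in HP1α KO and 40.3 ± 9.28 CPM in HP1α WT (log2 fold change -0.58, adjusted p = 0.946 and unadjusted p = 0.00257 by edgeR). The HP1α KO libraries, at 23.0 to 29.0 CPM, all lay below the HP1α WT libraries, at 33.8 to 54.0 CPM, and 2.96% of the genes tested did not overlap. In HP1γ KO and HP1γ WT Cbx5 was at 25.4 ± 4.72 and 31.3 ± 4.98 CPM, so its level did not set the HP1α KO apart from the HP1γ line. CPM here is the estimated count scaled to a library of 1000000 after TMM normalization. RNA of other cells was present at uneven levels, and its part in the results below was not tested. The summed erythroid markers (3 genes, with Hbb-bs) ranged from 50.8 to 724 CPM in HP1γ KO and from 28.4 to 317 CPM in HP1γ WT, the dendritic markers (4 genes, with Siglech) from 38.3 to 149 and from 17.0 to 73.7 CPM, the B cell markers (6 genes) from 264 to 374 and from 263 to 337 CPM, and the myeloid markers (6 genes) from 39.6 to 83.6 and from 22.6 to 48.4 CPM. In the HP1α line the erythroid sum was 20.2 to 112 CPM in KO and 10.1 to 323 CPM in WT, the B cell sum 393 to 737 and 351 to 516 CPM, the dendritic sum 18.5 to 52.2 and 16.1 to 29.9 CPM, and the myeloid sum 35.2 to 116 and 28.6 to 80.9 CPM. Over the 16 libraries the CD8 markers (2 genes, with Cd8a) summed to 5.09 to 18.5 CPM. The γδ markers (4 genes, with Trdc, the δ-chain constant region) summed to 27.2 to 57.0 CPM. The NK markers (4 genes) summed to 39.3 to 91.6 CPM. Rag1, the recombinase of developing thymocytes, was at 0 in 12 of 16 libraries. No gene of the lists for B, NK, myeloid, dendritic, erythroid, CD8 and γδ cells was at 0 in all 4 libraries of a group.

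All 10 genes were among the most abundant transcripts. Per length (TPM, over the 16 libraries) the order of medians was Trbc2 at 2407, Trac at 1672, Trbc1 at 1054, Lck at 888, Cd3g at 729, Cd4 at 682, Cd247 at 407, Cd3e at 366, Zap70 at 317 and Cd3d at 271 TPM. Even Cd3d stood above 96.7% of expressed genes. Each gene exceeded the next in all 16 libraries except Trbc1 over Lck, in 15, and Cd3g over Cd4, in 13, so these are the neighbours whose order was not the same throughout. The 2 β constant regions together stood at 2.08 ± 0.101 times the level of Trac (SD, n = 16), Lck at 2.85 ± 0.233 times that of Zap70 and Cd3g at 1.95 ± 0.117 times that of Cd3e, all as ratios of TPM.

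**Figure D1:**
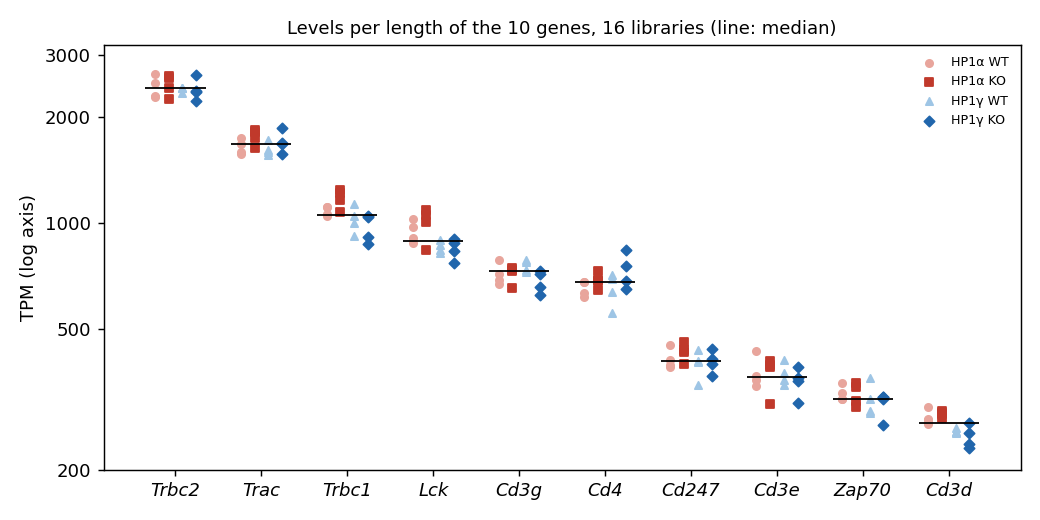
TPM of each of the 10 genes on a log axis, in order of the median over 16 libraries (black line), with 1 symbol per library and a symbol shape per group. The genes span from 271 (Cd3d) to 2407 TPM (Trbc2), and the libraries of the 4 groups lie over each other for most genes.

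The spread within groups was narrow. The coefficient of variation of a gene over the 4 libraries of a group ran from 0.969% (Cd3d in HP1α KO) to 9.68% (Cd4 in HP1γ KO), and its median over the 10 genes was 3.70%, 4.45%, 6.25% and 6.75% in HP1α KO, HP1α WT, HP1γ KO and HP1γ WT. Over all genes the medians were 11.5%, 13.1%, 13.5% and 13.3%. More abundant genes carry less counting error, so the 2 sets of medians differ in depth as well. Within groups the genes tended to be high or low in the same libraries: over the 16 libraries, after the group means were taken out, 44 of 45 pairs of genes had a positive Pearson r, with a median of 0.53. These values share the scaling factor and depth of each library, and the correlation is given as a description. Measured in the same way against 9744 genes of at least 5 CPM, Cd3e was most like Lbh (r = 0.937), Rtn3 (0.931) and Decr1 (0.926), Cd4 most like Eif2b3 (0.90), Mis18a (0.895) and Fastkd1 (0.889), Lck most like Uba1 (0.945), Etv6 (0.912) and Cnn2 (0.908), and Zap70 most like Gnb1l (0.902), Plxna3 (0.894) and Tm7sf2 (0.887).

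**Figure D2:**
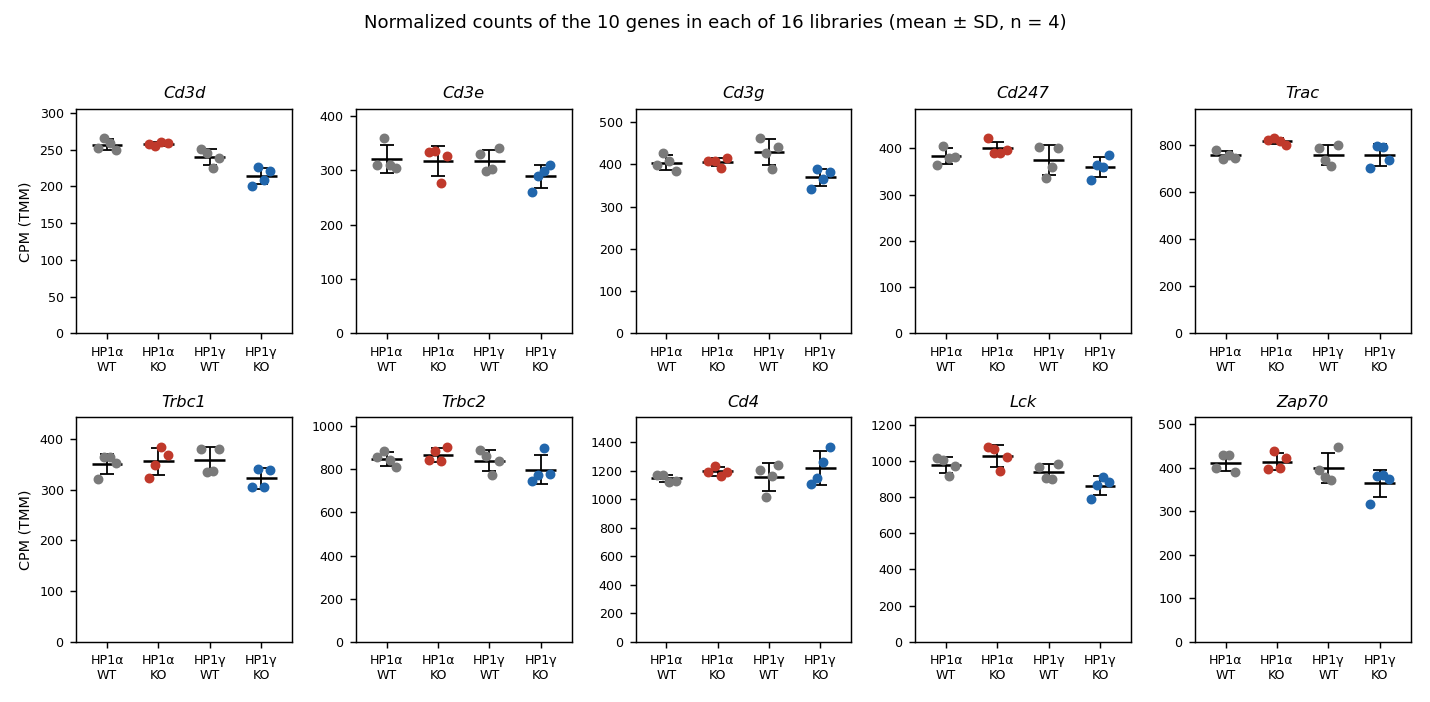
CPM of each gene (vertical axis, from 0) in the 4 libraries of each group, with the mean (line) and SD (bars), n = 4. Trac of HP1α KO lies above all HP1α WT libraries and Cd3g of HP1γ KO lies below all HP1γ WT libraries, and every other pair of KO and WT groups of a line overlaps.

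Whether HP1α loss altered the receptor genes was asked first. None of the 10 passed an adjusted p of 0.05 in HP1α KO against WT by edgeR, where 0% of 14881 genes tested did. The count of members was also 0 by DESeq2 and by limma on log2(TPM + 1), and 1, 1 and 0 members had an unadjusted p under 0.05 by edgeR, DESeq2 and limma. Of all genes tested, 4.27% had an unadjusted p under 0.05 by edgeR. The intervals were tight for most genes: the 95% intervals of the 10 fold changes lay between changes of -12.3% (Cd3e) and 15.5% (Trac). The median log2 fold change of the 10 was 0.027, against 0.0026 over all genes tested. Of the 10, 9 lay above 0, where 49.1% of all genes tested lay below. With 1 library left out the median was 0.011 to 0.049. The number above 0 was then 6 without replicate 1 or replicate 4 of HP1α WT, and up to 10 without replicate 2 of HP1α WT.

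Trac, the constant region of the receptor α chain, stood furthest from 0. It was at 825, 829.9, 819 and 803 CPM in HP1α KO and at 782, 742, 759 and 748 CPM in HP1α WT. All 4 KO libraries were above all 4 WT libraries, by little (log2 fold change 0.11, SE 0.0433, adjusted p = 0.946 by edgeR, 95% interval 0.016 to 0.21, unadjusted p = 0.0267). It was the only 1 of the 10 genes whose groups did not overlap in CPM in this line, where 2.96% of the genes tested did not overlap. The exact permutation test on CPM gave p = 0.0286, the smallest that 4 against 4 libraries allow. In TPM the groups of Trac overlapped, at 1633 to 1835 TPM in HP1α KO and 1569 to 1745 TPM in HP1α WT. The 130 listed Trav segments are joined to Trac in α-chain transcripts. Their sums were 267, 275, 274 and 273 CPM in HP1α KO. In HP1α WT they were 250.0, 248, 237 and 251 CPM, again with no overlap in CPM. The 35 listed Trbv segments summed to 356 to 379 CPM in HP1α KO and 344 to 394 CPM in HP1α WT, which overlapped. The Trav sum was looked at after the values of Trac were seen, and both sums are given without a test.

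The CD3 chains differed less. Cd3d, the δ chain, was at 258 ± 2.50 CPM in HP1α KO and 256 ± 7.27 CPM in WT (SD, n = 4; log2 fold change 0.0081, SE 0.0442, adjusted p = 0.994 by edgeR). Cd3g, the γ chain, was at 406 ± 9.71 and 404 ± 17.5 CPM (log2 fold change 0.0066, SE 0.0493, adjusted p = 0.996 by edgeR), with overlapping groups for both. Cd247, the ζ chain that carries most of the tyrosine motifs, was at 399.9 ± 14.8 and 383 ± 17.4 CPM (log2 fold change 0.063, SE 0.0522, adjusted p = 0.946 by edgeR).

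Cd3e, the ε chain shared by the γε and δε dimers, was the least even of the 4. It was at 333, 336, 276 and 326 CPM in HP1α KO and 310.3, 359, 309 and 305 CPM in HP1α WT. Replicate 3 of the KO was low and replicate 2 of the WT was high, and the other 6 libraries lay between 305 and 336 CPM (log2 fold change -0.014, SE 0.0786, adjusted p = 0.994 by edgeR). The fold change was 0.046 without the low library and 0.044 without the high one.

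Trbc1 was at 356 ± 26.6 CPM in HP1α KO and 351 ± 20.4 CPM in WT (log2 fold change 0.020, SE 0.0659, adjusted p = 0.985 by edgeR), and Trbc2 at 868 ± 32.1 and 848 ± 30.9 CPM (log2 fold change 0.034, SE 0.0494, adjusted p = 0.961 by edgeR). Cd4, which binds MHC class II, was at 1196 ± 29.3 and 1148 ± 25.8 CPM (log2 fold change 0.059, SE 0.0446, adjusted p = 0.946 by edgeR). Of the kinases, Lck was at 1027 ± 61.8 and 976 ± 44.4 CPM (log2 fold change 0.073, SE 0.0593, adjusted p = 0.946 by edgeR) and Zap70 at 414 ± 19.8 and 412 ± 19.8 CPM (log2 fold change 0.0066, SE 0.0556, adjusted p = 0.996 by edgeR). In each of these 5 genes the groups overlapped.

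**Figure D3:**
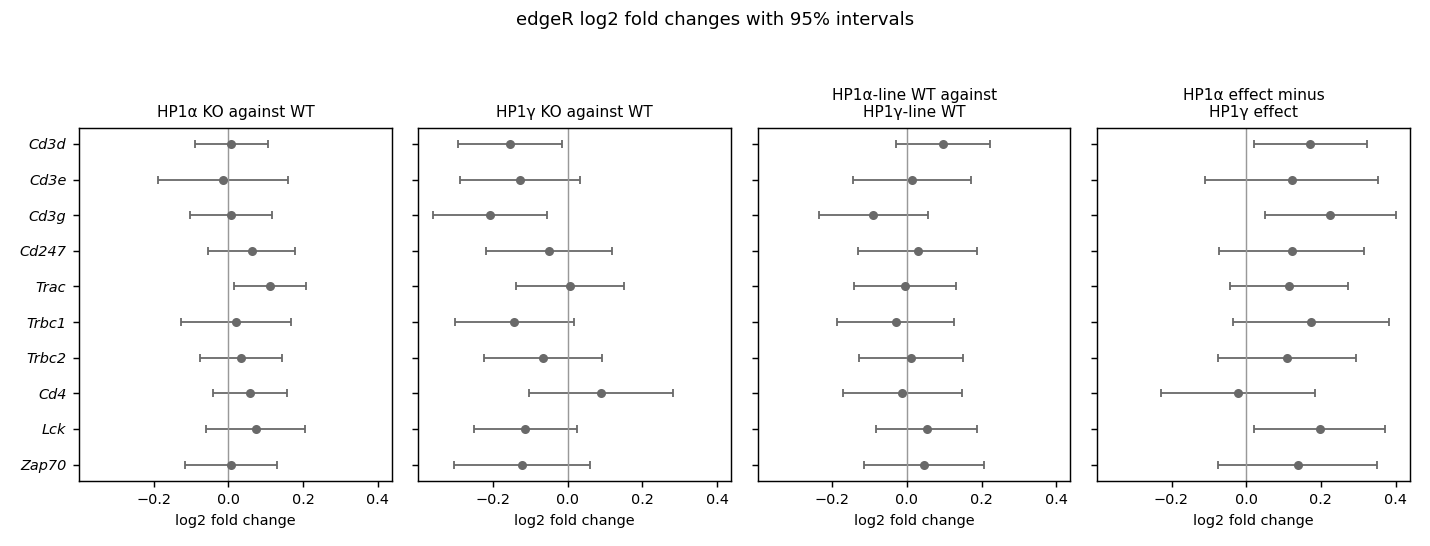
edgeR log2 fold changes (points) with 95% intervals (bars) of the 10 genes in HP1α KO against WT, HP1γ KO against WT, the WT groups of the 2 lines, and the HP1α effect minus the HP1γ effect. The interval leaves 0 outside for Trac in the first comparison, for Cd3d and Cd3g in the second, for none in the third and for Cd3d, Cd3g and Lck in the fourth, and no gene passed the adjusted threshold.

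In the HP1γ line none of the 10 genes passed the adjusted test either. The median log2 fold change of the 10 was -0.12, against 0.00050 over all genes tested, and 8 of the 10 lay below 0, where 49.9% of all genes tested did. On the deposited TPM, by limma on log2(TPM + 1), the median was -0.030 with 7 of 10 below 0, and without replicate 1 of the KO, by edgeR, it was -0.069. The summed erythroid markers were at 619, 724, 50.8 and 508 CPM in HP1γ KO and 28.4, 295, 317 and 42.7 CPM in HP1γ WT, and their part in these values was not tested. By edgeR 0 of the 10 genes were called, where 0.327% of 14975 genes were. Unadjusted p was under 0.05 for 2 of the 10 and for 11.9% of all genes tested. DESeq2 and limma also called 0, with 2 and 1 at an unadjusted p under 0.05. The 95% intervals ran from -22.2% (Cd3g) to 21.5% (Cd4). In bulk RNA, fewer T cells in a library and less of these transcripts per cell cannot be told apart.

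Cd3g was furthest from 0. It was at 342, 388, 366 and 381 CPM in HP1γ KO and 461, 426, 389 and 441 CPM in HP1γ WT. All 4 KO libraries were below all 4 WT libraries, the closest pair being 388 and 389 CPM (log2 fold change -0.21, SE 0.0688, adjusted p = 0.325 by edgeR, unadjusted p = 0.0123, exact permutation p = 0.0286). It was the only 1 of the 10 whose groups did not overlap in CPM in this line, where 7.10% of the genes tested did not overlap. In TPM the groups of Cd3g overlapped, at 625 to 731 TPM in HP1γ KO and 726 to 786 TPM in HP1γ WT. The interval of its log2 fold change was -0.36 to -0.056.

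Its head-to-head neighbour Cd3d was at 201, 226, 208 and 221 CPM in HP1γ KO and 250.3, 245, 225 and 238 CPM in HP1γ WT. Replicate 2 of the KO was just above replicate 3 of the WT, and the other libraries were apart (log2 fold change -0.15, SE 0.0623, adjusted p = 0.385 by edgeR, unadjusted p = 0.0323, exact permutation p = 0.0571). Cd3e was at 289 ± 21.4 CPM in the KO and 318 ± 20.3 CPM in the WT (log2 fold change -0.13, SE 0.0722, adjusted p = 0.509 by edgeR). Cd247, on another chromosome, was at 360.1 ± 22.2 and 375 ± 32.2 CPM (log2 fold change -0.049, SE 0.0759, adjusted p = 0.835 by edgeR), and the groups of both genes overlapped.

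The chains that bind antigen were less even. Trac was at 759 ± 45.1 CPM in HP1γ KO and 760.3 ± 42.9 CPM in HP1γ WT (log2 fold change 0.0062, SE 0.0652, adjusted p = 0.980 by edgeR). Trbc1 was at 323 ± 20.4 and 358 ± 25.8 CPM (log2 fold change -0.14, SE 0.0719, adjusted p = 0.467 by edgeR), Trbc2 at 798 ± 67.4 and 840.3 ± 48.7 CPM (log2 fold change -0.066, SE 0.0716, adjusted p = 0.750 by edgeR), and the 2 together, which need no split of shared reads, at 1121 ± 62.6 and 1199 ± 66.2 CPM. All of these groups overlapped.

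Lck was at 793, 866, 912 and 883 CPM in HP1γ KO and 967, 909, 901 and 983 CPM in HP1γ WT. The KO libraries lay lower apart from replicate 3, which was above replicates 2 and 3 of the WT (log2 fold change -0.11, SE 0.0620, adjusted p = 0.493 by edgeR). Zap70 was at 318, 380.2, 383 and 375 CPM in the KO and 395, 378, 373 and 448 CPM in the WT (log2 fold change -0.12, SE 0.0823, adjusted p = 0.585 by edgeR), with replicate 1 of the KO below all the others. That library was the lowest of its group in 9 of the 10 genes. It also held 20.1 CPM of the neutrophil gene S100a9, against 0 to 4.19 CPM in the other HP1γ KO libraries, and 359.8 CPM of Hbb-bs, against 28.7 to 424 CPM. Replicate 2 of the KO, at 424 CPM of Hbb-bs, was the lowest of the group in 0 of the 10 genes and the highest in 4. The part of this RNA in the values was not tested. Without replicate 1 of the KO the log2 fold change was -0.17 for Cd3g, -0.076 for Lck and -0.063 for Zap70.

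Cd4, which did not pass the test, had a log2 fold change above 0. It was at 1109, 1149, 1266 and 1370 CPM in HP1γ KO and 1206, 1015, 1162 and 1244 CPM in HP1γ WT, and replicate 4 of the KO was the highest and replicate 2 of the WT the lowest of the 8 (log2 fold change 0.089, SE 0.0862, adjusted p = 0.711 by edgeR, 95% interval -0.10 to 0.28). Cd4-cre drives Cre from Cd4 regulatory DNA. Whether any transcript of the transgene was counted as Cd4 was not tested. Of the 40 genes within 200 kb of Cd4, 29 were tested and 0 passed by edgeR, 14 lying above 0 and 15 below. The smallest p were those of Phb2 (log2 fold change -0.17, SE 0.0535, adjusted p = 0.310 by edgeR), a mitochondrial prohibitin, and of Gm20531 (log2 fold change 0.75, SE 0.292, adjusted p = 0.373 by edgeR), which was at 0.419 ± 0.0528 and 0.249 ± 0.0285 CPM.

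Set against the summed TPM of the 4 CD3 chains, the coreceptor stood at 0.425, 0.385, 0.455 and 0.465 in HP1γ KO and at 0.355, 0.330, 0.393 and 0.376 in HP1γ WT. In the KO, 3 libraries were above all WT libraries and replicate 2 was below replicate 3 of the WT. On the log2 scale the means were -1.21 ± 0.122 and -1.46 ± 0.110 (SD, n = 4), a difference of 0.25 (exact permutation p = 0.0571, adjusted over 3 comparisons 0.171). In the HP1α line the ratio was 0.367 to 0.392 in KO and 0.345 to 0.389 in WT, with a difference of 0.054 on the log2 scale (exact permutation p = 0.171, adjusted 0.257). The 2 differences were not told apart by permutation within lines (4900 arrangements, exact p = 0.129, adjusted over the 2 measures 0.259).

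The split of β-chain transcripts between the 2 constant regions overlapped in all groups. Trbc1 made up 27.8, 28.3, 31.4 and 29.0% of the estimated counts of Trbc1 and Trbc2 in HP1α KO, and 27.3, 29.3, 30.3 and 30.3% in HP1α WT. In the HP1γ line it made up 29.1, 30.6, 25.4 and 30.4% in KO and 30.0, 28.1, 30.3 and 31.2% in WT. The mean differences were -0.202, -1.04 and -0.601 percentage points for HP1α KO against WT, HP1γ KO against WT and HP1α WT against HP1γ WT. The exact permutation p was 0.886 for HP1α KO against WT, 0.600 for HP1γ KO against WT and 0.543 between the WT groups, and all were 0.886 after adjustment over the 3. The share rests on how reads of the shared exon 1 were divided. The length implied by count over TPM, for Trbc1 over Trbc2, was 0.832 to 0.877 in HP1α KO, 0.883 to 1.05 in HP1α WT, 0.984 to 1.04 in HP1γ KO and 0.966 to 1.03 in HP1γ WT. It was computed after the shares were seen, and its part in the share was not tested.

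**Figure D4:**
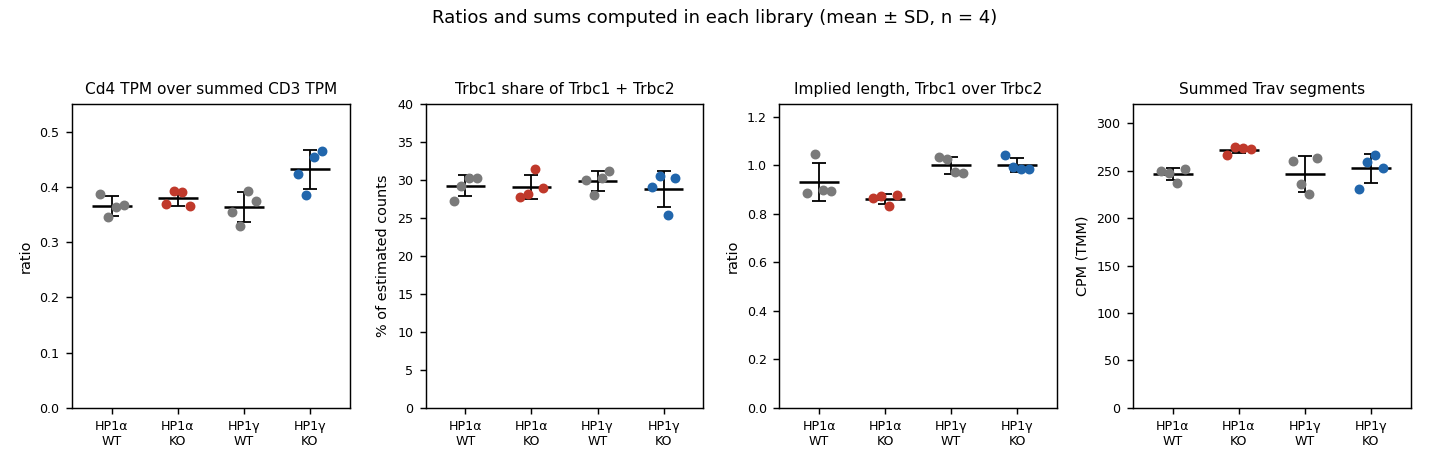
Cd4 TPM over the summed TPM of the 4 CD3 chains, the Trbc1 share of β constant region counts, the length implied for Trbc1 over that for Trbc2, and the summed CPM of Trav segments, per library, with mean and SD (n = 4). In the first panel 3 of 4 HP1γ KO libraries lie above all HP1γ WT libraries, the Trbc1 shares lie between 25.4% and 31.4%, the implied lengths are lowest in HP1α KO, and the Trav sums of HP1α KO lie above those of HP1α WT.

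The effects of the 2 knockouts were compared directly in a fit of all 16 libraries, the same libraries as in the comparisons above. No member was called, where 0.0507% of 15776 genes were (0.00634% above 0 and 0.0444% below), and DESeq2 and limma also called 0. Unadjusted p under 0.05 were found for 3 of the 10 genes by edgeR, 3 by DESeq2 and 0 by limma, and by edgeR for 9.58% of all genes tested. The HP1α effect minus the HP1γ effect was 0.22 for Cd3g (SE 0.0826, adjusted p = 0.440 by edgeR), 0.20 for Lck (SE 0.0832, adjusted p = 0.476 by edgeR) and 0.17 for Cd3d (SE 0.0717, adjusted p = 0.467 by edgeR). It lay above 0 for 9 of the 10 genes and was -0.021 for Cd4, where 49.4% of all genes tested lay below 0.

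Between the WT mice of the 2 lines many genes differed, but none of these 10 was called. By edgeR 12.8% of 14804 genes passed, 674 higher (4.55%) and 1222 lower (8.25%) in HP1α WT than in HP1γ WT. The count of members was 0 by edgeR, DESeq2 and limma, with 0, 0 and 2 at an unadjusted p under 0.05, and no member had groups apart, where 19.5% of the genes tested did. By edgeR 29.9% of the genes tested had an unadjusted p under 0.05. The log2 fold changes ran from -0.090 for Cd3g (SE 0.0662) to 0.10 for Cd3d (SE 0.0572), and the 95% intervals from -15.1% to 16.7%. Lck was at 916 to 1015 CPM in HP1α WT and 901 to 983 CPM in HP1γ WT, and as mean ± SD Zap70 was at 412 ± 19.8 and 398 ± 34.6 CPM, and Cd4 at 1148 ± 25.8 and 1157 ± 100.1 CPM. In each the groups overlapped. The 2 WT groups also serve as controls above. The ratio of Cd3g to Cd3d TPM was computed after the values were seen and is given without a test. It was 2.24 to 2.61 over the 8 libraries of the HP1α line and 2.69 to 3.05 over the 8 of the HP1γ line. These ranges did not overlap. The share of other gene ratios that separate the lines in this way was not computed, so the ratio is not shown to be particular to these genes.

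The pathway that these genes feed was read from 6 lists of 89 further genes, all of which were tested. In HP1α KO against WT 0 of 89 were called by edgeR, with 2 at an unadjusted p under 0.05, Cd6 and Cd5, inhibitory surface receptors of T cells. Of all genes tested, 4.27% had an unadjusted p under 0.05. Cd6 was at 862 ± 30.7 CPM in KO and 760.3 ± 40.3 CPM in WT (log2 fold change 0.18, SE 0.0533, adjusted p = 0.946 by edgeR), and Cd5 at 731 ± 23.3 and 661 ± 33.0 CPM (log2 fold change 0.15, SE 0.0515, adjusted p = 0.946 by edgeR). The adaptors Grap (0.13) and Lat (0.13) and the NF-κB scaffold protease Malt1 (-0.18, all log2 fold changes) had the next smallest p.

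In HP1γ KO against WT 0 of the 89 were called, with 8 at an unadjusted p under 0.05, as were 11.9% of all genes tested. The smallest p was that of Irf4, a transcription factor induced by receptor signals, at 408 ± 15.1 CPM in KO and 316 ± 51.8 CPM in WT (log2 fold change 0.38, SE 0.101, adjusted p = 0.218 by edgeR). Ppp3ca, the catalytic subunit of calcineurin, was at 46.6 ± 4.74 and 58.3 ± 7.29 CPM (log2 fold change -0.32, SE 0.101, adjusted p = 0.312 by edgeR). Nr4a2 (0.30), Cd5 (0.18) and the cytokine Il2 (0.44) followed, as log2 fold changes. In the comparison of the 2 effects 0 of 89 were called, with 4 at an unadjusted p under 0.05, as were 9.58% of all genes tested. The smallest p of the 89 were those of Cd27 (0.32), Dok2 (0.25), Itpr2 (-0.15), Ppp3ca (0.29) and Egr1 (0.35), as the HP1α effect minus the HP1γ effect on the log2 scale.

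Between the WT groups 18 of the 89 were called (20.2%, beside 12.8% of all genes tested), 4 higher and 14 lower in HP1α WT. Of the 18 genes induced by receptor signals, 1 was higher and 5 were lower. Irf4 was at 152 ± 35.9 CPM in HP1α WT and 316 ± 51.8 CPM in HP1γ WT (log2 fold change -1.06, SE 0.168, adjusted p = 0.00569 by edgeR), and Nr4a2, an orphan nuclear receptor, was lower as well (log2 fold change -0.82, SE 0.209, adjusted p = 0.0308 by edgeR). Egr3 was lower too (log2 fold change -0.40, SE 0.0983, adjusted p = 0.0272 by edgeR) and Cd40lg, the ligand of CD40, was higher (log2 fold change 0.44, SE 0.108, adjusted p = 0.0265 by edgeR).

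Of the 21 effectors, 0 were higher and 4 lower. Orai1, the pore of the calcium channel, was at 78.5 ± 17.7 CPM in HP1α WT and 172 ± 25.3 CPM in HP1γ WT (log2 fold change -1.14, SE 0.160, adjusted p = 0.00351 by edgeR), the smallest p of the 89. Malt1 was lower as well (log2 fold change -0.53, SE 0.125, adjusted p = 0.0236 by edgeR). Of the 7 costimulatory receptors 1 was higher and 2 were lower, Cd28 at 513 ± 62.8 and 774 ± 51.0 CPM (log2 fold change -0.60, SE 0.0886, adjusted p = 0.00428 by edgeR) and Icos (log2 fold change -0.48, SE 0.125, adjusted p = 0.0328 by edgeR).

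In the other lists, of 19 adaptors 1 was higher, Grap2, also known as GADS, which links LAT to SLP-76 (log2 fold change 0.36, SE 0.0873, adjusted p = 0.0265 by edgeR), and 1 was lower. Of 13 negative regulators 1 was higher, Dgka, a diacylglycerol kinase (log2 fold change 0.41, SE 0.0788, adjusted p = 0.0114 by edgeR), and 1 was lower. Of 11 kinases and phosphatases 0 were higher and 1 was lower. The number of calls between the WT groups rested on single libraries. Without replicate 1 of HP1α WT, replicate 1 of HP1γ WT or replicate 2 of HP1γ WT, 4 of the 89 were called in each case, and 8 and 10 without replicates 2 and 4 of HP1α WT. Of all genes tested, 3.78%, 4.05%, 4.16%, 7.27% and 6.86% were called in these fits, in the same order. DESeq2 called 31, and 3 of the 18 also had an absolute log2 fold change above 1.

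**Figure D5:**
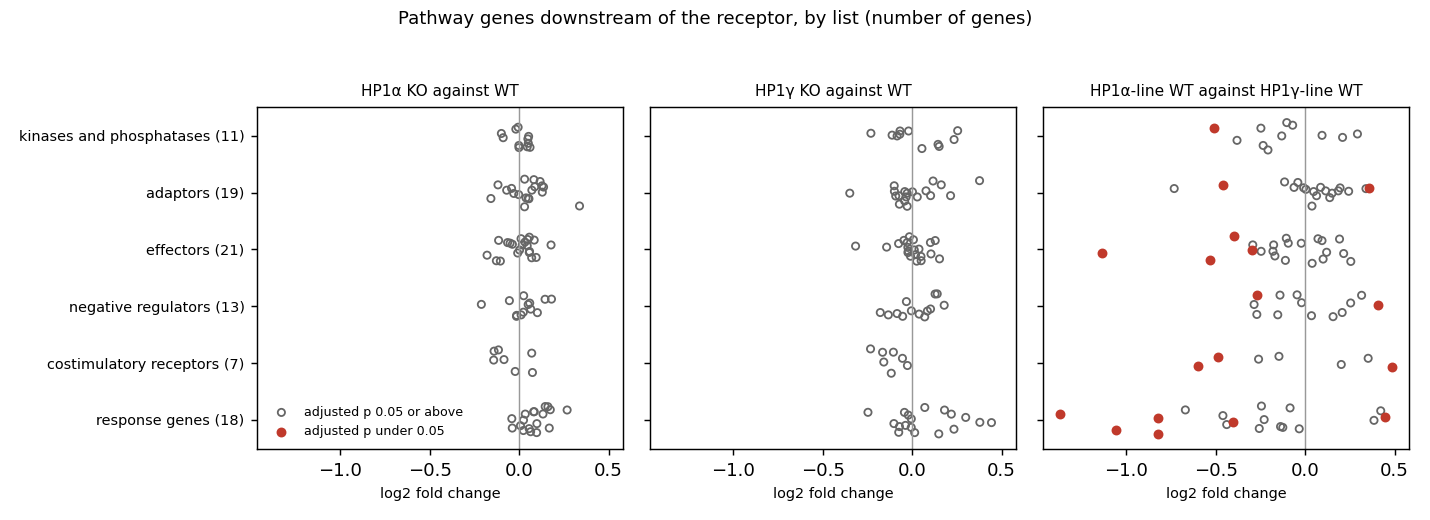
log2 fold changes (horizontal axis) of the 89 pathway genes by list (rows, number of genes in brackets) in HP1α KO against WT, HP1γ KO against WT and HP1α WT against HP1γ WT. Filled points have an adjusted p under 0.05 by edgeR, which 0, 0 and 18 of the 89 genes reached.

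The variable segments that are joined to the constant regions were read last, as a view of the repertoire at the level of genes. Of the 165 listed (130 Trav and 35 Trbv), 119, 115 and 114 were tested in HP1α KO against WT, HP1γ KO against WT and between the WT groups. None was called in HP1α KO or HP1γ KO by edgeR, with 8 and 13 at an unadjusted p under 0.05, beside 4.27% and 11.9% of all genes tested. Between the WT groups 5 of 114 were called, beside 12.8% of all genes tested. Trbv23 (2.13), Trav13n-1 (1.36), Trav5-4 (0.79) and Trbv31 (0.54) were higher in HP1α WT and Trav16 (-0.73) was lower, as log2 fold changes with adjusted p of 0.00814, 0.0148, 0.0414, 0.0355 and 0.0494 by edgeR. Over 19 alternatives, added after seeing the data, Trbv23 and Trav13n-1 were called in 17 each, Trav5-4 and Trbv31 in 7 each and Trav16 in 6, and without replicate 1 of HP1α WT 1 segment was called. All but Trbv31 stood under 5 CPM, and near-identical Trav copies share reads, so the values of single Trav segments are uncertain.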

How the data were processed

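Memory CD4+ T cells were profiled by stranded, paired 150 bp RNA-Seq in 4 groups of 4 libraries. The authors trimmed reads with Trim Galore, aligned them with STAR and quantified genes with Salmon on GRCm39, and deposited estimated counts and TPM per gene. Of the deposited estimated counts 11.6% were not whole, and all were rounded. Groups came from the titles, since a treatment label that speaks of transferred regulatory T cells does not match the sorting described. Genes were tested with edgeR 4.0.16 (R 4.3.3), with TMM scaling, filterByExpr at a minimum count of 10, quasi-likelihood tests and Benjamini-Hochberg adjustment over all genes tested, calling an adjusted p under 0.05. Each pair of groups was fitted alone, and the difference between the knockout effects in all 16 libraries. The deposited TPM were tested with limma 3.58.1 on log2(TPM + 1), and DESeq2 1.42.0 was the other alternative. Single derived values were tested by two-sided exact permutation. The script was checked on simulated counts. Coordinates and sequences came from GRCm39 with the GENCODE M39 annotation, in which 56017 of 56748 genes were found.

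All 10 genes were named in every comparison. Of the pathway genes, those called were named, up to 10, or the 5 with the smallest p where fewer than 5 were called, and of the variable segments up to 6 that were called. The 2 genes with the smallest p were named near Cd4, and the 3 most correlated genes for each of Cd3e, Cd4, Lck and Zap70. The genes and lists were chosen with earlier results of these data known. Alternatives were another scaling, filter, tool, pseudocount and fit, a replicate block, and each library left out.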

Additional observations from a re-analysis of the deposited data

Results flagged for a closer look

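In 48 groups of 4 libraries (12 measures in each of the 4 groups), 3 held a library whose gap to the nearest other was above Dixon's 95% critical share of the group's range. Chance marks about 1 in 20 groups. Cd3e was at 276 CPM in HP1α KO replicate 3, with the others at 326 to 336 CPM, and at 359 CPM in HP1α WT replicate 2, with the others at 305 to 310.3 CPM. Zap70 was at 318 CPM in HP1γ KO replicate 1, with the others at 375 to 383 CPM.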

How the results depend on the processing

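None of the 10 genes was called under any alternative in any of the 4 comparisons, and the smallest adjusted p was 0.117 (Cd3g, HP1γ KO against WT, all 16 samples in 1 edgeR fit). Of 880 recomputed log2 fold changes 54 changed sign, in 15 results that lay within 0.049 of 0. The cause was not tested.

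With limma on TPM, at either pseudocount and with or without the filter, the log2 fold change was -0.0080 for Zap70 in HP1α KO against WT, 0.022 for Cd247 in HP1γ KO against WT, and 0.0098 for Cd4, 0.021 for Trac and 0.080 for Trbc1 between the WT groups. For Trac in HP1γ KO against WT it was -0.0073 with no filter on low counts and -0.0028 with all 16 samples in 1 fit. With HP1α WT replicates 2 and 3 left out, a choice made after seeing the data for their high Rn18s-rs5 counts, it was 0.044 for Cd3e in HP1α KO against WT, and between the WT groups -0.044 for Cd3e, -0.0054 for Cd247, 0.011 for Trac, -0.010 for Trbc2 and -0.010 for Zap70. With HP1γ KO replicates 1 and 4 left out, chosen likewise for S100a9 and Siglech, Cd3g was at -0.18 and no member was called. By TPM the difference in Trbc1 share was 1.38 percentage points in HP1α KO against WT and 0.952 between the WT groups, and by normalized counts the Cd4 to CD3 log2 difference between the WT groups was -0.010.

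Leaving out 1 library gave, in HP1α KO against WT, -0.0059 to 0.025 for Cd3d, -0.044 to 0.046 for Cd3e, -0.017 to 0.034 for Cd3g, -0.020 to 0.064 for Trbc1 and -0.024 to 0.027 for Zap70. It gave -0.021 to 0.039 for Trac in HP1γ KO against WT. Between the WT groups it gave -0.039 to 0.048 for Cd3e, -0.021 to 0.064 for Cd247, -0.071 to 0.024 for Cd4, -0.034 to 0.021 for Trac, -0.062 to 0.011 for Trbc1 and -0.025 to 0.039 for Trbc2, and -0.065 to 0.040 for Cd4 in the difference between effects. The Cd4 to CD3 log2 difference was 0.20 to 0.30 in HP1γ KO against WT, with exact permutation p of 0.0286 without HP1γ KO replicate 2 (0.30) and up to 0.0857 otherwise, and -0.033 to 0.052 between the WT groups. The difference in Trbc1 share was -0.979 to 0.244, -1.65 to 0.121 and -1.22 to 0.062 percentage points in HP1α KO, HP1γ KO and between the WT groups. Pathway genes called numbered 4 to 25 between the WT groups, and 0 to 1 in HP1γ KO against WT, with 1 without HP1γ WT replicate 2. Variable segments called numbered 1 to 4 between the WT groups and 0 to 1 in HP1α KO against WT, with 1 without HP1α WT replicate 3. In HP1γ KO against WT 1 segment was called with the replicate block and 1 by DESeq2. The other settings that moved the 18 calls between the WT groups by over 1.5 times were the replicate block (6), DESeq2 (31), limma with no filter (4) and the added pair left out (8).

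Counts over all genes moved more. In HP1γ KO against WT 49 were called, and 252 by DESeq2, 96 with all 16 samples, 17 by limma on log2(TPM + 1), 31 with 10 counts in every sample, 30 without HP1γ KO replicate 1, 32 without replicate 2, 12 by limma with no filter and 9 without replicates 1 and 4. In HP1α KO against WT 0 genes were called, and 5 by DESeq2 and 3 by limma. Between the WT groups 1896 were called, 1135 by limma (21.9% of them higher) and 551 by limma with no filter (11.3% higher), and 573 without HP1α WT replicate 1, 613 and 626 without HP1γ WT replicates 1 and 2, and 1101 and 1040 without HP1α WT replicates 2 and 4. For the difference between effects 8 were called, with 79 by DESeq2, 14 with no filter, 13 with the block and 3 to 5 by limma.

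Same-numbered libraries were not shown to pair, and the main tests did not use the numbers. The mean correlation of their deviations was 0.217 in the HP1α line, 0.114 in the HP1γ line and -0.131 between the WT groups. Single pairs ran from 0.0847 to 0.355, from 0.0497 to 0.170 and from -0.201 to -0.083, in the same order. Every pair within a line thus lay above 0. Of 4 pairs, 3, 2 and 0 were over 0.1, and 4, 2 and 0 of the 8 libraries correlated best with their own number. With the replicate block 0 members were called, and the genes called between the WT groups were 577 in place of 1896, of which 19.2% in place of 35.5% were higher.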
